A study of Homo sapiens with 12 samples.

Results

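The genes described here make cholesterol and fatty acids, or control, carry and dispose of sterols in the cell. Of 35 listed genes, 33 had a probe set naming them alone, among 18132 genes measured in that way, and all 33 were bright enough to be tested. They comprise 16 of the 18 listed sterol synthesis genes, 7 of 7 fatty acid synthesis genes, 4 regulators of the SREBP pathway, 2 sterol transport genes, 3 targets of the liver X receptors (LXR) and the phosphatidate phosphatase LPIN1. FDFT1, the squalene synthase, and CYP51A1, the lanosterol demethylase, had no probe set of their own in the annotation used and were not analysed here. For each gene the value is that of its probe set with the highest mean over the 12 arrays.

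The data are 12 arrays of the Affymetrix PrimeView type, 3 in each of 4 groups, hybridised with RNA of the uveal melanoma lines MUM2B and OCM1. In the first pair of groups MUM2B and OCM1 cells overexpressed CANT1 (CASC15-New-Transcript 1), a long noncoding RNA, and in the second pair the same lines were wild type. No empty vector is described for the wild type cells, so an effect of CANT1 cannot be told apart from one of the vector or of selection. Replicate 1 of every group carries a growth label that mentions puromycin selection of the overexpressing cells, and replicates 2 and 3 carry a label of DMEM with 10% FBS. Separate cultures are not stated for the replicates, so all p-values below reflect how arrays of a group varied, and that variation may be technical.

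Cells make cholesterol from acetyl-CoA by way of mevalonate, squalene and lanosterol. The transcription factors SREBF1 and SREBF2 switch on the genes of this pathway and of fatty acid synthesis: when membrane sterol is plentiful, INSIG1 holds the SREBP escort protein SCAP in the endoplasmic reticulum, and when it is scarce, SCAP takes the SREBP proteins to the Golgi, where they are cut and released. Sterol surplus acts the other way through LXR, which oxysterols activate and which raise the exporters ABCA1 and ABCG1 and the ubiquitin ligase MYLIP. INSIG1 is itself an SREBP target, and SREBF2 can raise its own transcription.

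Levels below are log2(scaled signal + 32), where signal was scaled on each array to a trimmed mean of 500, and differences are CANT1 minus wild type on that scale, with ± for the standard error. A gene passed where its limma p, adjusted by Benjamini-Hochberg over all genes tested, was under 0.05. A level of 1 gene is never set against that of another, since probe sets differ in brightness. The arrays measure cells in bulk, so fewer expressing cells and less RNA per cell cannot be told apart.

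Replicate 1 differed from replicates 2 and 3 over the whole array. The 3′ over 5′ log2 difference of the ACTB control probe sets was 2.15 to 2.51 on the 4 replicate 1 arrays and 0.473 to 0.911 on the other 8. Wild type OCM1 replicate 1 was the least like its own line, with a mean correlation of 0.828 across genes, against 0.936 to 0.978 for the other 11 arrays. Replicates 2 and 3 of a group correlated at 0.994 to 0.996. Melanocyte markers differed between the lines: all 7 measured melanocyte markers had a signal of at least 100 on every OCM1 array, with summed signals of 75995 to 81861 in CANT1 cells and 14273 to 77292 in wild type cells, the lowest being replicate 1. In MUM2B 4 of the 7 did (PMEL, TYR, MITF and SOX10), with summed signals of 643 to 736 in CANT1 cells and 622 to 833 in wild type cells, while MLANA, TYRP1 and S100B were under 100 on all its arrays.

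Among the regulators, INSIG1 moved in opposite directions in the 2 lines. INSIG1 stood at 11.13 and 11.34 in MUM2B CANT1 cells on replicates 2 and 3, against 9.79 and 10.44 in wild type cells, a difference of 1.12 ± 0.21 (limma adjusted p = 0.00387). In OCM1 it stood at 9.12 and 9.69 in CANT1 cells, against 11.01 and 10.85 in wild type cells, a difference of −1.53 ± 0.21 (limma adjusted p = 0.000525). Both arrays of each CANT1 group lay outside the wild type pair, above it in MUM2B and below it in OCM1, and the group means differed 2.18-fold and 2.88-fold. On replicate 1 INSIG1 was lower in CANT1 cells of both lines, at 11.41 against 12.63 in MUM2B and 10.73 against 12.37 in OCM1. Its 2 other probe sets gave 1.26 and 1.34 in MUM2B and −1.23 and −1.13 in OCM1.

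SREBF2, the SREBP that acts mainly on sterol genes, stood at 9.69 and 10.34 in MUM2B CANT1 cells and 9.28 and 9.45 in wild type cells (difference 0.65 ± 0.17, limma adjusted p = 0.0182). In OCM1 it stood at 10.16 and 10.06 in CANT1 cells and 10.34 and 10.22 in wild type cells (−0.17 ± 0.17, limma adjusted p = 0.527). On replicate 1 it was at 9.12 in CANT1 cells and 10.01 in wild type cells of MUM2B, and at 9.56 and 9.47 in OCM1. SREBF2 thus passed in MUM2B and not in OCM1, and the test of that difference itself is given below. The MUM2B call was lost without wild type replicate 2 or CANT1 replicate 3.

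SREBF1, which acts mainly on fatty acid genes, did not pass in either line. It stood at 9.12 and 9.20 in MUM2B CANT1 cells and 9.31 and 9.37 in wild type cells (−0.18 ± 0.10), and its 2 other probe sets gave 0.016 and 0.31, of the opposite sign. In OCM1 it stood at 9.14 and 8.95 in CANT1 cells and 9.17 and 9.16 in wild type cells (−0.12 ± 0.10). On replicate 1 the CANT1 and wild type arrays read 9.39 and 9.36 in MUM2B and 9.30 and 9.07 in OCM1. SCAP, the escort protein, did not pass either, at 10.08 and 10.05 in MUM2B CANT1 cells and 10.25 and 10.17 in wild type cells (−0.15 ± 0.11). In OCM1 SCAP stood at 10.66 and 10.55 in CANT1 cells and 10.36 and 10.62 in wild type cells (0.11 ± 0.11). Replicate 1 gave SCAP 9.88 in CANT1 and 9.61 in wild type MUM2B cells, and 10.25 and 10.68 in OCM1. Among the 4 regulators, INSIG1 and SREBF2 rose in MUM2B, and INSIG1 fell in OCM1.

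The promoter windows of 30 listed genes could be read from RefSeq (GRCh38.p14), each running from 250 bases before a transcript start to 50 bases after it. The motif TCACNCCAC, one form of the sterol regulatory element that SREBP proteins bind, was searched on both strands and lay in 1 of the 30 genes, SREBF2 itself, 133 bases before the start. That is 3.33% of these genes, beside 1.39% of 27305 genes with a promoter in the table. CCAAT, the box bound by NF-Y, which works beside SREBP at many sterol genes, lay on either strand in 21 of the 30 genes (70%), beside 39.7% of all genes. The absence of a match says only that these letters are not in the window.

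The SREBF2 window is shown for its match, with the motif in capitals. The windows of EBP, MSMO1 and INSIG1 are shown because these genes had the smallest limma p in either line among the members with a CCAAT box, with CCAAT or its complement ATTGG in capitals. None of these boxes overlaps the other motif.
SREBF2, chr22:41832855-41833154, + strand: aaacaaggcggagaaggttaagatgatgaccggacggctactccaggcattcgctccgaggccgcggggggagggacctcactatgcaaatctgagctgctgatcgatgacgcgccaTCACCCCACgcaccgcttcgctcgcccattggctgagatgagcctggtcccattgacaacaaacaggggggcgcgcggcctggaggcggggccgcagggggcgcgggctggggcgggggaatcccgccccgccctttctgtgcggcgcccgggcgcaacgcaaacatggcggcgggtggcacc
EBP, chrX:48521558-48521857, + strand: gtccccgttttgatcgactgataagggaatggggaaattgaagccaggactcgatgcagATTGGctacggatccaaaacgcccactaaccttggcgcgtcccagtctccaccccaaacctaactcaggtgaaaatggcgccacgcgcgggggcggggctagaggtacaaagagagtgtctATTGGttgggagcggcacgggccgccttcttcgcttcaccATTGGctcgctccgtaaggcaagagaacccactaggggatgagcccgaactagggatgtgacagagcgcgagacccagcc
MSMO1, chr4:165327419-165327718, + strand: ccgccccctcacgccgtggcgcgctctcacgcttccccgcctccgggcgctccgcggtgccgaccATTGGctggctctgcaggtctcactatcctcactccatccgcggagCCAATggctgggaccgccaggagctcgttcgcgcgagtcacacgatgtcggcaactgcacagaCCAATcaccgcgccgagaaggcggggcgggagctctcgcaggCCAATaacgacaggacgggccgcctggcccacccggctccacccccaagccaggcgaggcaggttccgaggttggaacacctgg
INSIG1, chr7:155297628-155297927, + strand: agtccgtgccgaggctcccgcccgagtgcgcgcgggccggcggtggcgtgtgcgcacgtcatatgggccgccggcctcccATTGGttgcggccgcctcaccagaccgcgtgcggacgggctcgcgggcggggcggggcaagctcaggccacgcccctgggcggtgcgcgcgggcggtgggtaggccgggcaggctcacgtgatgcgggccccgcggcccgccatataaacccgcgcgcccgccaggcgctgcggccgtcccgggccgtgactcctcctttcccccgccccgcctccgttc
EBP holds 3 such boxes, MSMO1 4 and INSIG1 1.

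In MUM2B the sterol synthesis genes rose almost as a body on replicates 2 and 3. Of the 16 measured, 13 passed as higher in CANT1 cells, 1 passed as lower (PMVK) and 2 did not pass (EBP and LSS). Of the 12383 genes tested, 14.2% passed as higher and 10.4% as lower. The median difference of the 16 genes was 0.50, and that of all genes tested was 0.0046. Both CANT1 arrays lay above both wild type arrays for 15 of the 16 and below them for PMVK. With 2 arrays a group, such separation can often arise without a group difference. How many of all genes tested were separated in this way was not counted. HSD17B7 was tested only through its MUM2B CANT1 arrays, and without it 12 of 15 rose, with a median of 0.46. Of the endothelial marker list, 3 of 4 genes had a signal of at least 100 on every MUM2B CANT1 array and 2 of 4 on every MUM2B wild type array, with summed signals of 3133 to 4929 in CANT1 cells and 2671 to 4084 in wild type cells. Among them CDH5 stood at 12.04 and 12.19 in CANT1 cells and 11.24 and 11.55 in wild type cells on replicates 2 and 3. On replicate 1 CDH5 was at 11.37 in CANT1 cells and 11.68 in wild type cells. PECAM1 stood at 7.63 and 7.11 in CANT1 cells and 6.94 and 7.04 in wild type cells on replicates 2 and 3. On replicate 1 PECAM1 was at 8.34 in CANT1 cells and 9.26 in wild type cells. For VWF the CANT1 arrays lay between the wild type arrays on replicates 2 and 3. TEK was under a signal of 100 on all MUM2B arrays. The part of these markers in the sterol gene differences was not tested.

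HMGCS1 moved furthest of the synthesis genes on the probe sets used. HMGCS1, which makes HMG-CoA, stood at 10.73 and 11.35 in CANT1 cells, against 9.43 and 10.05 in wild type cells, and rose 2.46-fold (1.30 ± 0.21, limma adjusted p = 0.00195). Its other probe set gave 0.74, while the 2 other bright probe sets of MSMO1 gave 1.34 and 1.49, so this rank depends on the probe set read. ACAT2, which makes the acetoacetyl-CoA that feeds that step, stood at 11.98 and 12.25 in CANT1 cells and 11.52 and 11.79 in wild type cells (0.46 ± 0.13, limma adjusted p = 0.0208). IDI1, the isomerase that balances the isoprene building blocks, stood at 10.97 and 11.36 in CANT1 cells and 10.07 and 10.51 in wild type cells (0.87 ± 0.16, limma adjusted p = 0.00319). In all 3 genes the lower CANT1 array was above the higher wild type array.

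FDPS, which joins isoprene units into farnesyl diphosphate, stood at 11.94 and 12.01 in CANT1 cells and 11.46 and 11.59 in wild type cells (0.45 ± 0.10). MVD, which decarboxylates mevalonate diphosphate, stood at 9.12 and 9.41 in CANT1 cells and 8.86 and 8.87 in wild type cells (0.40 ± 0.11). Both passed with smaller differences than HMGCS1 or IDI1. The 2 mevalonate kinases went opposite ways: MVK rose by 0.44 ± 0.12, while PMVK, the kinase of the next step, was at −0.31 ± 0.094 and was the only member called lower in MUM2B. The mevalonate steps thus held 6 genes that rose and 1 that fell, of 7.

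After squalene, MSMO1, which removes methyl groups from the sterol ring, stood at 11.93 and 12.37 in CANT1 cells, against 10.73 and 11.12 in wild type cells, and rose 2.33-fold (1.22 ± 0.16, limma adjusted p = 0.000842). SQLE, the squalene epoxidase, stood at 12.30 and 12.66 in CANT1 cells and 11.56 and 11.89 in wild type cells (0.76 ± 0.14, limma adjusted p = 0.00366). SC5D, a sterol desaturase late in the path, stood at 10.47 and 10.73 in CANT1 cells and 9.75 and 10.02 in wild type cells (0.72 ± 0.13, limma adjusted p = 0.00322). The CANT1 pair was above the wild type pair for each.

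DHCR7, which catalyses the last reduction to cholesterol in one branch, stood at 10.08 and 10.54 in MUM2B CANT1 cells and 9.50 and 9.89 in wild type cells (0.62 ± 0.16, limma adjusted p = 0.0153). NSDHL, a sterol dehydrogenase that works with MSMO1, stood at 10.21 and 10.36 in CANT1 cells and 9.88 and 10.05 in wild type cells (0.32 ± 0.10, limma adjusted p = 0.0443). EBP, a sterol isomerase, stood at 11.09 and 11.32 in CANT1 cells and 10.94 and 11.02 in wild type cells and did not pass (0.23 ± 0.11, limma adjusted p = 0.159). HSD17B7, a sterol ketone reductase, had a signal of 121 and 187 in CANT1 cells and of 84 and 92 in wild type cells, the wild type arrays lying under the 100 asked for, so its call (0.61 ± 0.15) had to favour the CANT1 cells. The sterol reductase TM7SF2 rose by 0.53 ± 0.15, although its other bright probe sets gave 0.10 to 0.22. LSS, the lanosterol synthase, was at 0.10 ± 0.11 and did not pass.

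**Figure D1:**
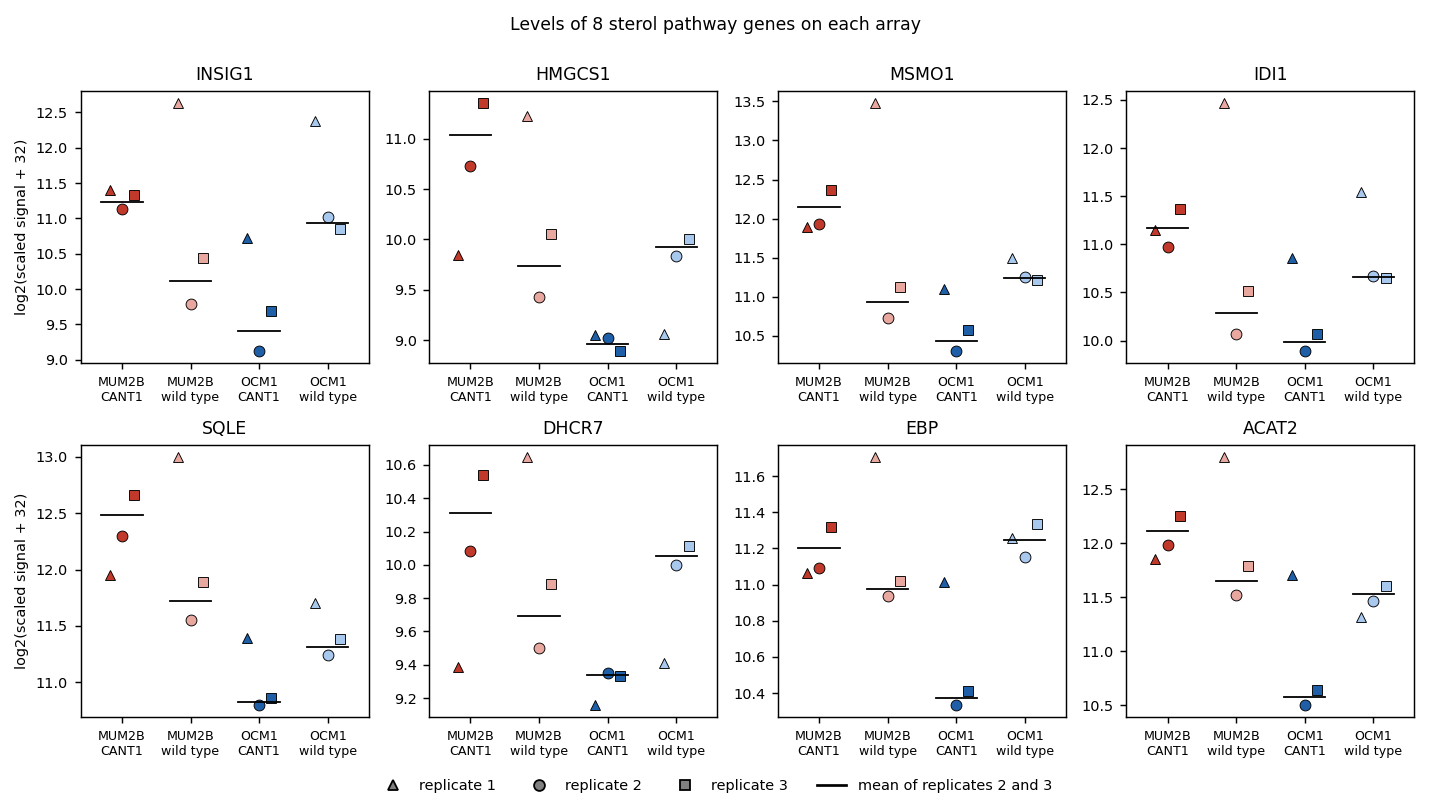
Levels of INSIG1, HMGCS1, MSMO1, IDI1, SQLE, DHCR7, EBP and ACAT2 on each of the 12 arrays, as log2(scaled signal + 32), by group, with triangles for replicate 1, circles for replicate 2, squares for replicate 3 and a line for the mean of replicates 2 and 3. On replicates 2 and 3 the CANT1 arrays lie above the wild type arrays in MUM2B and below them in OCM1, while the MUM2B wild type replicate 1 array is above its group's other arrays in all 8 panels.

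Outside synthesis, the MUM2B genes that carry and export sterols rose too. NPC1, which moves cholesterol out of lysosomes, stood at 10.82 and 11.46 in CANT1 cells and 9.98 and 10.01 in wild type cells (1.14 ± 0.16, limma adjusted p = 0.00113), a 2.21-fold difference. STARD4, a cytosolic sterol carrier, stood at 9.76 and 9.89 in CANT1 cells and 9.00 and 9.52 in wild type cells (0.57 ± 0.15, limma adjusted p = 0.0203). Both rose together with the synthesis genes.

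All 3 LXR targets passed as higher in MUM2B on the probe sets used. With the mean of all probe sets the calls on ABCA1 and MYLIP were lost, and that on ABCG1 was kept. ABCG1, a cholesterol exporter, stood at 9.69 and 9.98 in CANT1 cells and 7.79 and 8.78 in wild type cells (1.55 ± 0.24, limma adjusted p = 0.00162). Its 2.93-fold rise was the largest of the 33 genes, with wild type arrays that were themselves far apart, and its 4 other bright probe sets gave 0.39 to 1.78. ABCA1, which loads cholesterol onto apolipoproteins, stood at 10.49 and 10.45 in CANT1 cells and 10.04 and 10.19 in wild type cells (0.35 ± 0.094, limma adjusted p = 0.021). Its other bright probe set gave 0.18. MYLIP, a ubiquitin ligase for lipoprotein receptors, stood at 9.05 and 9.08 in CANT1 cells and 8.64 and 8.75 in wild type cells (0.37 ± 0.10, limma adjusted p = 0.0197), but its 2 other probe sets gave 0.0055 and 0.077.

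Fatty acid synthesis moved less. SCD, the desaturase that makes oleate, stood at 13.28 and 13.36 in MUM2B CANT1 cells and 12.77 and 13.04 in wild type cells (0.41 ± 0.11, limma adjusted p = 0.0234). FADS1, a desaturase of polyunsaturated fatty acids, rose by 0.33 ± 0.11 (limma adjusted p = 0.0425). The 2 other probe sets of FADS1 gave 0.19 and 0.20, and its call was lost in 11 of 18 other settings, among them the smaller offset. The other 5 did not pass: FASN, the fatty acid synthase, was at 0.27, ACLY, which makes cytosolic acetyl-CoA, at 0.15, ACACA, the acetyl-CoA carboxylase, at 0.0032, and FADS2, a second polyunsaturated desaturase, at −0.043. ELOVL6, an elongase of long-chain fatty acids, stood at 9.98 and 9.97 in CANT1 cells and 9.82 and 9.95 in wild type cells (0.087 ± 0.095). The median of the 7 was 0.15. LPIN1, a phosphatidate phosphatase and SREBP target, stood at 11.07 and 11.37 in CANT1 cells and 10.40 and 10.68 in wild type cells (0.68 ± 0.13, limma adjusted p = 0.0036).

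In all, 23 of the 33 genes rose (22 of 32 without HSD17B7) and 1 fell in MUM2B, and 9 did not pass. The count fell to 9 without wild type replicate 2 and to 9 without CANT1 replicate 3, and lay between these and 22 with each of the other arrays of the fit left out. The calls that held through every single array left out were those on ABCG1, HMGCS1, IDI1, INSIG1, LPIN1, MSMO1, NPC1, SC5D and SQLE. Wild type replicate 2 was the lower and CANT1 replicate 3 the higher array of its pair for most of these genes: replicate 3 exceeded replicate 2 in 15 of 16 sterol synthesis genes in CANT1 cells (median 0.28) and in 15 of 16 in wild type cells (median 0.16). The shares of all genes that did so were not counted.

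In OCM1 sterol synthesis genes fell. Of the 16, 11 passed as lower in CANT1 cells on replicates 2 and 3 and 0 as higher. Of all genes, 13.9% passed as higher and 9.5% as lower. An unadjusted limma p under 0.05 was found for 12 of the 16, SC5D being the one above zero, beside 4485 of 12383 over all genes. The median was −0.44 for the 16 genes and 0.039 for all genes tested. Both CANT1 arrays lay below both wild type arrays for 12 of the 16, and here too the share over all genes was not counted. On the deposited values, without scaling or offset, the split over all genes was 1250 higher and 1306 lower. The main fit gave 1723 and 1177, and quantile normalization 1694 and 1321.

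ACAT2 stood at 10.50 and 10.64 in OCM1 CANT1 cells, against 11.47 and 11.60 in wild type cells (−0.96 ± 0.13, limma adjusted p = 0.000367). HMGCS1 stood at 9.02 and 8.89 in CANT1 cells and 9.84 and 10.01 in wild type cells (−0.97 ± 0.21, limma adjusted p = 0.00753). Each fell by close to 1 log2 unit, 1.95-fold and 1.95-fold, with pairs that did not overlap. IDI1 stood at 9.89 and 10.07 in CANT1 cells and 10.67 and 10.65 in wild type cells (−0.68 ± 0.16, limma adjusted p = 0.01). FDPS stood at 10.76 and 10.98 in CANT1 cells and 11.46 and 11.42 in wild type cells (−0.57 ± 0.10, limma adjusted p = 0.00253). MVD stood at 8.38 and 8.31 in CANT1 cells and 8.68 and 8.79 in wild type cells (−0.39 ± 0.11, limma adjusted p = 0.0256). The kinases MVK (−0.11 ± 0.12) and PMVK (−0.16 ± 0.094) did not pass, so 5 of the 7 mevalonate genes fell.

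After squalene, EBP moved furthest on the probe sets used. It stood at 10.33 and 10.41 in OCM1 CANT1 cells, against 11.15 and 11.34 in wild type cells (−0.87 ± 0.11, limma adjusted p = 0.000282). Its other probe set gave −0.82, while the 2 other bright probe sets of MSMO1 gave −0.87 and −0.90. MSMO1 stood at 10.31 and 10.57 in CANT1 cells and 11.25 and 11.22 in wild type cells (−0.80 ± 0.16, limma adjusted p = 0.00513). DHCR7 stood at 9.35 and 9.33 in CANT1 cells and 10.00 and 10.11 in wild type cells (−0.71 ± 0.16, limma adjusted p = 0.00714). For each of these the CANT1 pair lay wholly below the wild type pair. SQLE stood at 10.80 and 10.86 in CANT1 cells and 11.24 and 11.38 in wild type cells (−0.49 ± 0.14, limma adjusted p = 0.0281). NSDHL stood at 9.07 and 9.11 in CANT1 cells and 9.36 and 9.50 in wild type cells (−0.34 ± 0.10, limma adjusted p = 0.036). LSS fell by 0.35 on the log2 scale, while TM7SF2 (0.18 ± 0.15) and HSD17B7 (−0.057 ± 0.15) did not pass.

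SC5D went against the other sterol genes of OCM1 without passing. It stood at 10.37 and 10.46 in CANT1 cells and 10.21 and 9.97 in wild type cells (0.33 ± 0.13, limma adjusted p = 0.0917), and its 3 other probe sets gave −0.35 to 0.55, so its direction depends on the probe set read.

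Fatty acid synthesis divided in OCM1. SCD stood at 12.15 and 12.36 in CANT1 cells and 12.77 and 12.82 in wild type cells (−0.54 ± 0.11, limma adjusted p = 0.00617), and ACACA fell by 0.33 on the log2 scale (limma adjusted p = 0.0337). ELOVL6 was the only one of the 33 genes that rose in OCM1, at 9.62 and 9.74 in CANT1 cells and 9.21 and 9.15 in wild type cells (0.50 ± 0.095, limma adjusted p = 0.00349). Its 2 other probe sets gave 0.47 and 0.66. FASN (−0.38), ACLY (−0.26), FADS1 (−0.11) and FADS2 (0.048) did not pass.

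The transport, export and phosphatidate genes that rose in MUM2B did not pass in OCM1. NPC1 stood at 10.19 and 10.29 in OCM1 CANT1 cells and 10.17 and 10.26 in wild type cells (0.026 ± 0.16). STARD4 stood at 7.86 and 7.86 in CANT1 cells and 8.02 and 7.77 in wild type cells (−0.035 ± 0.15). LPIN1 stood at 11.33 and 11.41 in CANT1 cells and 11.43 and 11.44 in wild type cells (−0.068 ± 0.13). The pairs overlapped for NPC1 and STARD4, and for LPIN1 the CANT1 pair lay just below the wild type pair. MYLIP stood at 9.87 and 9.93 in CANT1 cells and 9.85 and 10.03 in wild type cells (−0.037 ± 0.10). ABCG1 stood at 6.13 and 6.09 in CANT1 cells and 6.04 and 6.30 in wild type cells (−0.055 ± 0.24), and ABCA1 at 5.90 and 5.89 in CANT1 cells and 5.79 and 5.89 in wild type cells (0.057 ± 0.094). The probe sets used for these exporters did not reach a signal of 100 on any OCM1 array. Another ABCG1 probe set, which reached it on 8 of the 12 arrays, gave 0.16.

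Altogether 14 of the 33 genes fell and 1 rose in OCM1, and 18 did not pass. The count fell to 7 without wild type replicate 3 and to 7 without CANT1 replicate 2, and reached at most 16 with another array left out. ACAT2, EBP, ELOVL6, FDPS and INSIG1 passed with every single array left out. The ACTB 3′ over 5′ difference was 0.911 and 0.845 on the OCM1 CANT1 arrays and 0.750 and 0.666 on the wild type arrays. Its part in these differences was not tested.

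**Figure D2:**
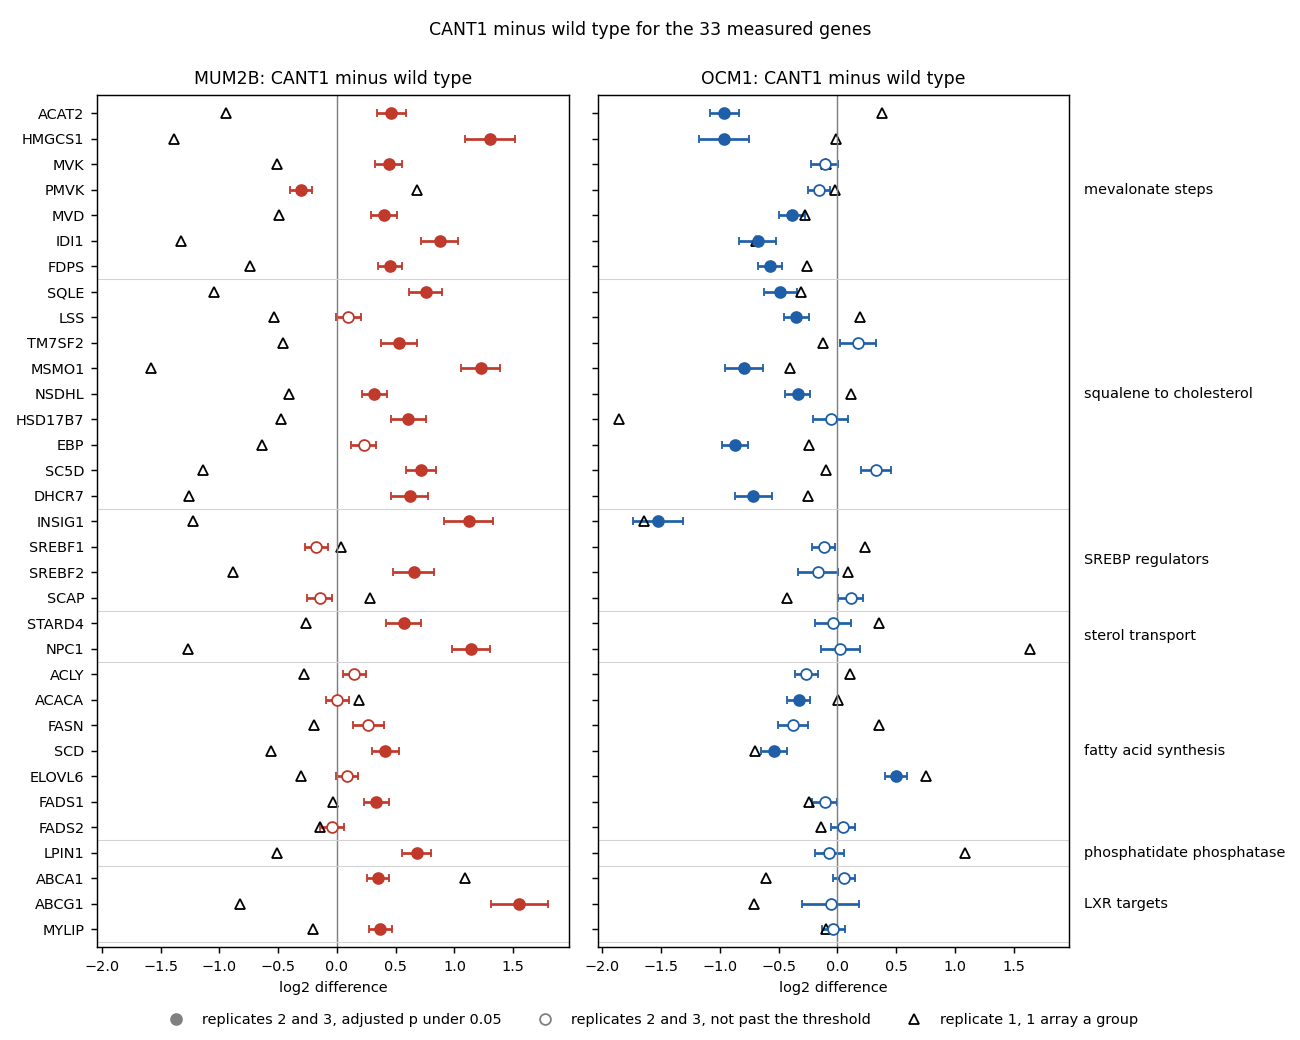
Log2 difference, CANT1 minus wild type, of the 33 genes by role in MUM2B (left) and OCM1 (right). Circles with bars are the difference of replicates 2 and 3 ± standard error, filled where limma adjusted p was under 0.05, and open triangles are the replicate 1 difference from 1 array a group. Most filled circles lie right of zero in MUM2B (23 of 24) and left of zero in OCM1 (14 of 15), and most MUM2B triangles lie on the other side of zero from their circles.

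The lines were then compared directly. Of the 33 genes, 11 passed in both lines on replicates 2 and 3, and for all 11 the direction was opposite, higher in MUM2B and lower in OCM1: ACAT2, DHCR7, FDPS, HMGCS1, IDI1, INSIG1, MSMO1, MVD, NSDHL, SCD and SQLE. Among the 11, INSIG1 alone kept its call in both lines with every single array left out. Over all genes tested, 7.53% passed in both lines, and 33.1% of those had opposite directions. The interaction, the OCM1 difference minus the MUM2B difference, passed as lower for 19 of the 33 genes and as higher for 1, against 10.6% and 11.4% of all genes tested. HSD17B7, ABCA1 and ABCG1 were under a signal of 100 on every OCM1 array of the fit, and without them 17 of 30 passed as lower and 1 as higher. The median interaction of the 16 sterol synthesis genes was −0.90, with 12 passing (11 of 15 without HSD17B7), and that of the 7 fatty acid genes −0.41, with 3 passing; for all genes it was 0.035. INSIG1 had the largest at −2.65 ± 0.30 (limma adjusted p = 0.000257), followed by HMGCS1 at −2.27 ± 0.30 (0.000667) and MSMO1 at −2.02 ± 0.23 (0.000279).

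SREBF2 also differed between the lines (−0.82 ± 0.24, limma adjusted p = 0.033), as did NPC1 (−1.12 ± 0.23) and LPIN1 (−0.75 ± 0.18). The interaction of ABCG1 (−1.60 ± 0.34) also passed, but its OCM1 arrays were at the low end of the scale, so it holds little beyond the MUM2B difference. ELOVL6 was the gene that went the other way (0.41 ± 0.13, limma adjusted p = 0.0494), and its call was lost with any 1 of the 8 arrays left out. Of the 20 calls, 14 held with each array left out, and those on SREBF2, LPIN1, HSD17B7, MVK and FASN were lost without at least 1 array. SREBF1 (0.06 ± 0.14), SCAP (0.26 ± 0.15), SC5D (−0.39 ± 0.18), STARD4 (−0.60 ± 0.22), ABCA1 (−0.29 ± 0.13) and MYLIP (−0.40 ± 0.14) did not pass. With all 12 arrays and a term for the labelled set, 0 members passed this interaction by limma, and 4 had an unadjusted p under 0.05 (ABCA1, ELOVL6, INSIG1 and SCD). How many of all genes had such a p in that fit was not counted.

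**Figure D3:**
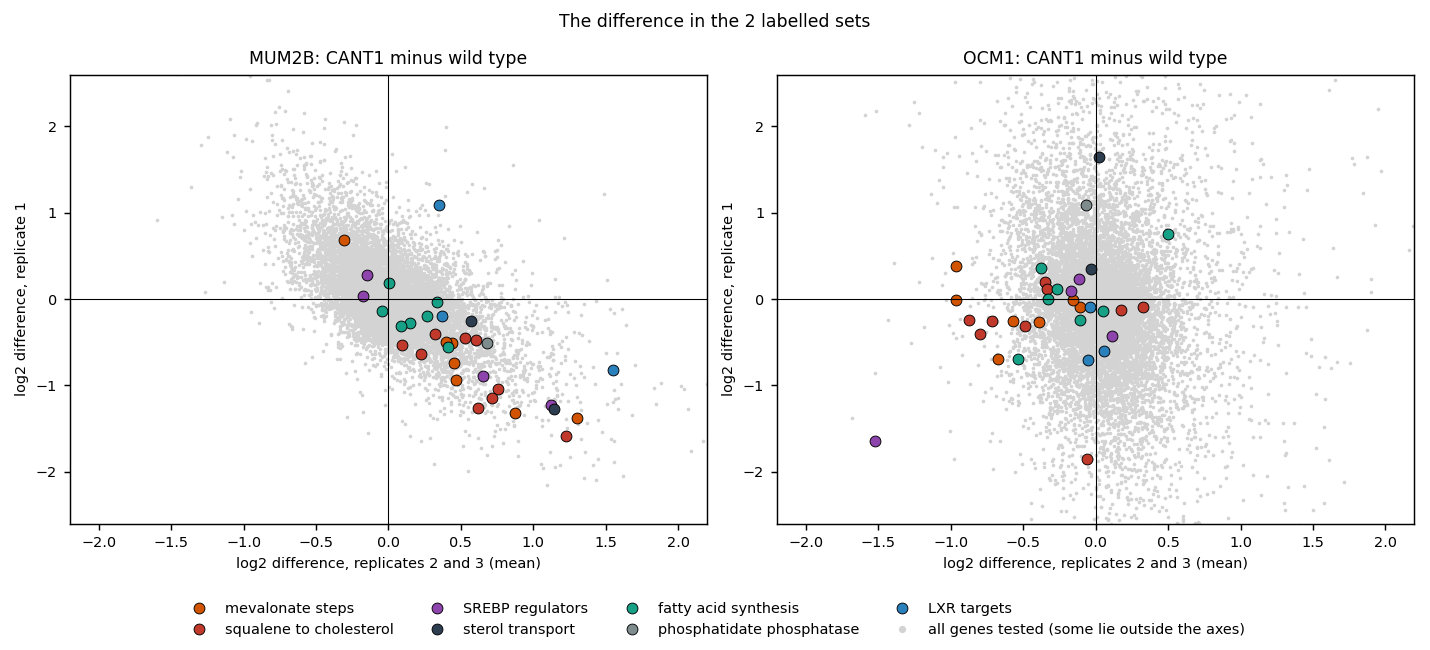
Log2 difference, CANT1 minus wild type, on replicate 1 (vertical) against the mean of replicates 2 and 3 (horizontal), for MUM2B (left) and OCM1 (right), with the 33 genes coloured by role over all tested genes in grey. The MUM2B genes lie mostly at lower right, the opposite sign in the 2 sets, and the OCM1 synthesis genes mostly at lower left.

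Replicate 1 gave another picture in MUM2B. There 15 of the 16 sterol synthesis genes were below zero, with a median of −0.69. Of all genes, 7693 of 12727 were below zero, with a median of −0.073. Among the 24 genes called on replicates 2 and 3, 1 (4.17%) kept its sign, which was ABCA1 (1.09). Over all genes called on replicates 2 and 3, 382 of 3045 (12.5%) kept their sign on replicate 1, and the 2 sets of differences correlated at r = −0.621 across genes, which are not independent replicates. MSMO1 stood at 11.90 in CANT1 cells and 13.48 in wild type cells on replicate 1 (−1.58). HMGCS1 stood at 9.84 in CANT1 cells and 11.23 in wild type cells, IDI1 at 11.15 and 12.47, and SQLE at 11.95 and 13.00. In each the CANT1 array was the lower by more than 1 log2 unit.

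Over the sterol synthesis genes, the wild type array of MUM2B replicate 1 lay further from its own group than the CANT1 array did. Against the mean of replicates 2 and 3 of its own group, the CANT1 replicate 1 array of MUM2B had a median of −0.24 over the 16 sterol synthesis genes, and the wild type replicate 1 array 0.95, with 15 of 16 genes above. Over all genes the same medians were 0.080 and 0.15. For the 7 fatty acid genes they were −0.33 in CANT1 cells and −0.23 in wild type cells. These levels cross the 2 labelled sets, whose deposited values had different distributions, and growth label, ACTB 3′ over 5′ difference and set cannot be told apart.

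More genes followed on the MUM2B replicate 1 arrays. SC5D stood at 10.81 in CANT1 cells and 11.95 in wild type cells, and ACAT2 at 11.85 and 12.80. FDPS stood at 11.74 in CANT1 cells and 12.48 in wild type cells, MVD at 9.19 and 9.68, and NSDHL at 10.04 and 10.45. All these were lower in CANT1 cells. DHCR7 stood at 9.39 in CANT1 cells and 10.65 in wild type cells, and EBP at 11.07 and 11.70. Of the transport and export genes, NPC1 stood at 10.50 in CANT1 cells and 11.77 in wild type cells, STARD4 at 10.14 and 10.39, and ABCG1 at 9.02 and 9.84. ABCA1 and PMVK went the other way: ABCA1 stood at 11.33 in CANT1 cells and 10.24 in wild type cells, and PMVK was at 0.68. MYLIP stood at 9.40 in CANT1 cells and 9.60 in wild type cells, LPIN1 at 11.28 and 11.78, SCD at 13.19 and 13.75, and ELOVL6 at 10.11 and 10.41. The 9 members with no replicate 1 value given so far ranged from −0.53 for LSS to 0.19 for ACACA.

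In OCM1 the synthesis genes mostly kept their sign on replicate 1. There 13 of 16 were below zero, with a median of −0.19. Of all genes, 7236 of 12727 were below zero, with a median of −0.051. Among the 15 genes called on replicates 2 and 3, 11 (73.3%) kept their sign, beside 1130 of 2900 (39.0%) over all genes (r = −0.219 across genes). INSIG1 had nearly the same difference in both sets, −1.64 on replicate 1 and −1.53 on replicates 2 and 3. IDI1 did as well, at 10.86 in CANT1 cells and 11.54 in wild type cells. So did SCD on the probe set used, at 12.42 in CANT1 cells and 13.12 in wild type cells. With the mean of all SCD probe sets, its replicate 1 difference minus that of replicates 2 and 3 was 0.62. ELOVL6 was higher in CANT1 cells in both sets, at 10.00 in CANT1 cells and 9.24 in wild type cells on replicate 1. HMGCS1 stood at 9.05 in CANT1 cells and 9.06 in wild type cells, a difference near zero, and ACAT2 at 11.70 and 11.32, of the opposite sign.

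The smaller OCM1 replicate 1 differences had the sign of the other set in several genes. MSMO1 stood at 11.10 in CANT1 cells and 11.50 in wild type cells, DHCR7 at 9.16 and 9.41, and SQLE at 11.40 and 11.70. FDPS stood at 11.28 in CANT1 cells and 11.54 in wild type cells, EBP at 11.01 and 11.26, and MVD at 8.90 and 9.17. All 6 were lower in CANT1 cells, with differences of −0.40 to −0.24. NSDHL stood at 9.52 in CANT1 cells and 9.40 in wild type cells, and SC5D at 10.79 and 10.88. NPC1 differed most in the upward direction, at 11.07 in CANT1 cells and 9.43 in wild type cells, and LPIN1 stood at 11.62 and 10.53. STARD4 stood at 8.36 in CANT1 cells and 8.01 in wild type cells, MYLIP at 10.18 and 10.28, ABCG1 at 6.05 and 6.75, and ABCA1 at 5.67 and 6.27. HSD17B7 differed most in the downward direction (−1.86): its level was 5.90, 6.07 and 5.86 on replicates 1, 2 and 3 in CANT1 cells, and 7.76, 6.09 and 5.96 in wild type cells. These differences rest on the wild type array that stood apart from its line and carried the lowest sum of melanocyte markers.

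The CANT1 difference was also set against the labelled set in a limma fit on all 12 arrays, in which the single replicate 1 array of each group was assumed to vary like the others. The ACTB difference of the replicate 1 arrays and the low correlation of wild type OCM1 replicate 1 go against that assumption, so the counts that follow hold only under it. In MUM2B the replicate 1 difference minus that of replicates 2 and 3 passed as lower for 23 of the 33 genes and as higher for 2 (PMVK and ABCA1), against 18.1% and 17.7% of all genes. All 16 sterol synthesis genes passed, 15 of them as lower, from −2.80 ± 0.28 for MSMO1 to −0.63 ± 0.18 for LSS. In OCM1 it passed as higher for 7 genes (ACAT2, HMGCS1, LSS, EBP, NPC1, FASN and LPIN1) and as lower for 3 (HSD17B7, SCAP and ABCA1), against 20.5% and 27.6% of all genes. The OCM1 count was 6 without wild type replicate 3. Of these, HSD17B7 reached a signal of 100 on 1 OCM1 array (wild type replicate 1) and ABCA1 on none. INSIG1 was at −2.34 ± 0.36 in MUM2B and at −0.12 ± 0.36 in OCM1.

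Across all 12 arrays, with the set as a term, no member passed in either line by limma. In MUM2B 0% of genes passed as higher and 0% as lower, and 1 member had an unadjusted p under 0.05, ABCA1 (0.60 ± 0.20, limma adjusted p = 1.00). The sterol synthesis genes had a median of 0.098 there, with 12 of 16 above zero, beside 6129 of 12727 over all genes. In OCM1 0.102% of genes passed as higher and 0.0236% as lower. Over all 12727 genes, 1179 had an unadjusted limma p under 0.05 in OCM1 and 220 in MUM2B. Of the 33 members, 4 had such a p in OCM1. These were INSIG1 (−1.57 ± 0.41, limma adjusted p = 0.227), EBP (−0.66 ± 0.19, 0.306), SCD (−0.59 ± 0.19, 0.349) and ELOVL6 (0.58 ± 0.12, 0.134). The OCM1 sterol synthesis genes had a median of −0.45, with 14 of 16 below zero, beside 6233 of 12727 over all genes. ELOVL6 passed once MUM2B wild type replicate 1 was left out (limma adjusted p = 0.0409).

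**Figure D4:**
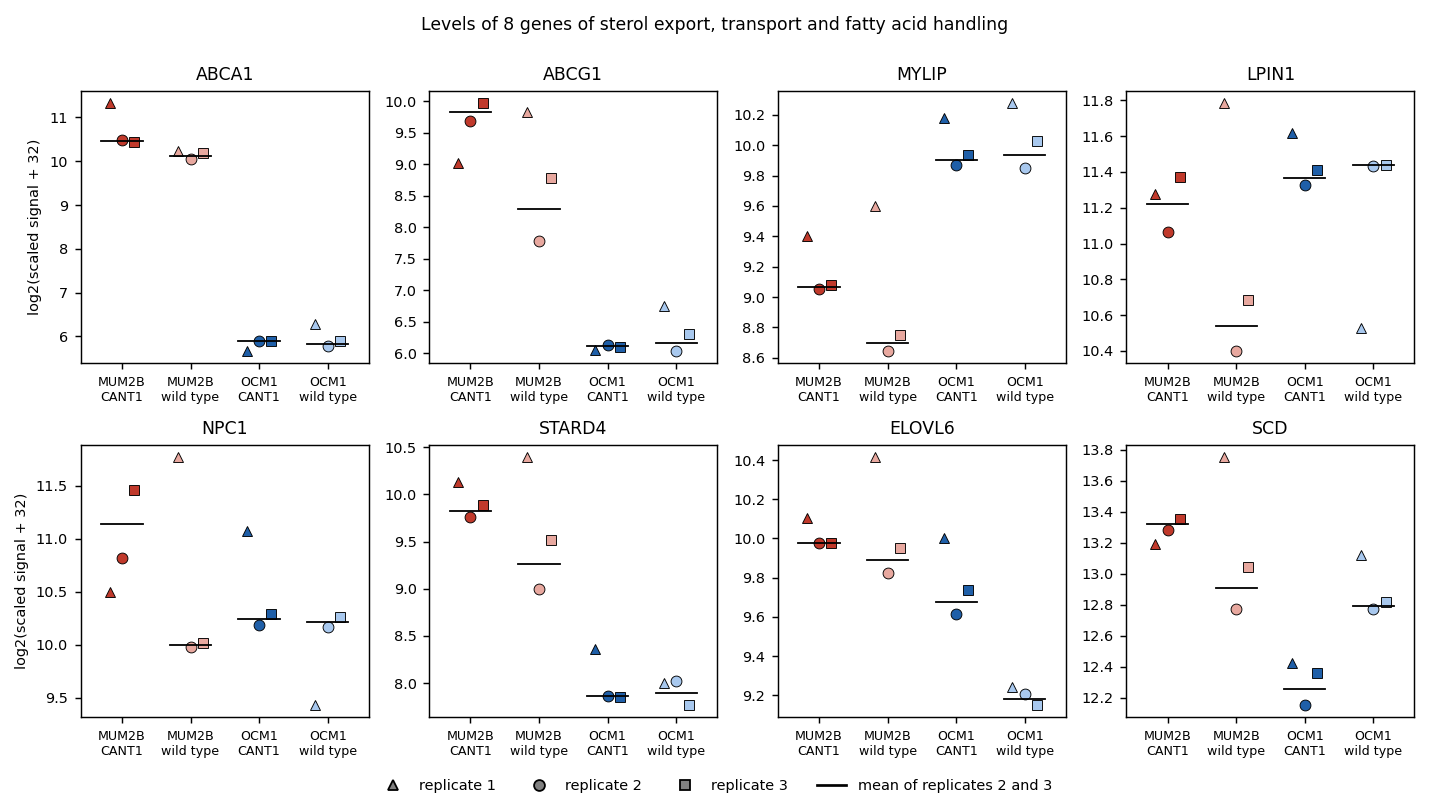
Levels of ABCA1, ABCG1, MYLIP, LPIN1, NPC1, STARD4, ELOVL6 and SCD on each of the 12 arrays, as log2(scaled signal + 32), by group, with triangles, circles and squares for replicates 1, 2 and 3 and a line for the mean of replicates 2 and 3. ABCA1 and ABCG1 sit near the floor of the scale on all OCM1 arrays, and ELOVL6 in OCM1 is higher in CANT1 cells on all 3 replicates.

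The wild type lines were compared with each other as well. On replicates 2 and 3, wild type OCM1 minus wild type MUM2B passed as higher for 7 of the 33 genes and as lower for 9, against 34.8% and 29.1% of all genes tested. Without HSD17B7, ABCA1 and ABCG1, whose wild type OCM1 arrays of the fit were under a signal of 100, 7 of 30 passed as higher and 6 as lower. None of the 7 mevalonate genes passed by limma (1 had an unadjusted p under 0.05, IDI1 at 0.37 ± 0.16), and of the 9 genes after squalene NSDHL (−0.54) and SQLE (−0.41) were lower in OCM1. HSD17B7 was under a signal of 100 in both, at 36 and 30 in wild type OCM1 and 84 and 92 in wild type MUM2B, and is given no difference. ABCA1 stood at 5.79 and 5.89 in wild type OCM1 and 10.04 and 10.19 in wild type MUM2B, and ABCG1 at 6.04 and 6.30 in wild type OCM1 and 7.79 and 8.78 in wild type MUM2B. Set against a signal of 100 in place of their OCM1 values, ABCA1 was at least 8.42-fold lower in OCM1 and ABCG1 at least 2.36-fold lower. Both were tested only because the MUM2B arrays were bright. Of the transport genes, STARD4 was lower in OCM1 (−1.36 ± 0.15), and NPC1 did not pass (0.22 ± 0.16).

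MYLIP went the other way, at 9.85 and 10.03 in wild type OCM1 and 8.64 and 8.75 in wild type MUM2B (1.24 ± 0.10). SREBF2 (0.92 ± 0.17), INSIG1 (0.82 ± 0.21) and SCAP (0.28 ± 0.11) were higher in OCM1, and so were LPIN1 (0.89 ± 0.13), ACACA (0.79) and ACLY (0.54). FADS1 (−0.82), ELOVL6 (−0.71) and FADS2 (−0.28) were lower. On replicate 1 the wild type difference had the opposite sign for SREBF2 (−0.53), INSIG1 (−0.26), LPIN1 (−1.25) and ACLY (−0.13), and these 4 calls were lost with all 12 arrays and the set term, at 0.43, 0.46, 0.18 and 0.32 in that order. The INSIG1 call was lost without MUM2B wild type replicate 2. The calls on SCAP, FADS2 and SQLE were each lost with 1 of several arrays left out: MUM2B wild type replicate 2 or 3 or OCM1 wild type replicate 3 for SCAP, MUM2B wild type replicate 2 or either OCM1 wild type array for FADS2, and MUM2B wild type replicate 3 or OCM1 wild type replicate 2 for SQLE. FADS2 also had the opposite sign, 0.090, when probe sets that may match several transcripts were left out. On replicate 1, 15 of the 16 sterol synthesis genes were lower in wild type OCM1 than in wild type MUM2B, with a median of −0.93. On replicates 2 and 3, 7 of 16 were lower, with a median of 0.17. Of all genes, 6340 of 12727 were lower on replicate 1 (median 0.0026) and 5511 of 12383 on replicates 2 and 3 (median 0.066).

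**Figure D5:**
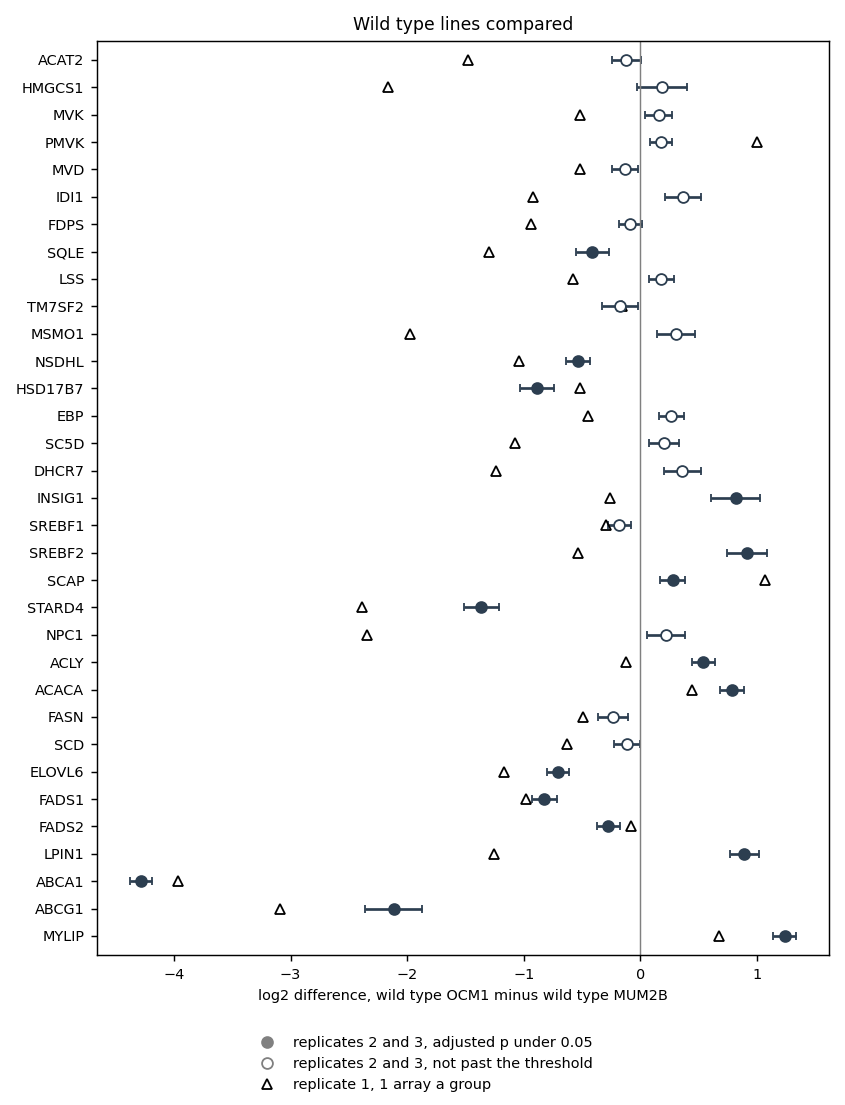
Log2 difference, wild type OCM1 minus wild type MUM2B, for the 33 genes. Circles with bars are replicates 2 and 3 ± standard error, filled where limma adjusted p was under 0.05, and open triangles are replicate 1. ABCA1, whose scaled signal was 19 to 45 on the OCM1 arrays, lies furthest left in both sets, and the replicate 1 triangles of most synthesis genes lie left of their circles.

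Of 34 further genes of these pathways, 32 were measured and tested. In MUM2B 6 rose and 4 fell on replicates 2 and 3, with a median of 0.16, against 14.2% and 10.4% of all genes. The largest were LPIN2, a relative of LPIN1 (0.69 ± 0.15), SOAT1, which esterifies cholesterol (−0.63 ± 0.10), ACSS2, which makes acetyl-CoA from acetate (0.59 ± 0.12), and GGPS1, which makes geranylgeranyl diphosphate (0.49 ± 0.11). On MUM2B replicate 1 all 4 had the opposite sign, at −0.62, 1.11, −0.98 and −0.48 in that order. In OCM1 6 rose and 2 fell, with a median of 0.15, against 13.9% and 9.5% of all genes. The largest were SCD5, a second stearoyl-CoA desaturase (1.02 ± 0.10), ACSL1, which activates long-chain fatty acids (0.80 ± 0.10), LPIN2 (0.68 ± 0.15) and TMEM97, a sterol-regulated membrane protein (−0.66 ± 0.094). SCD5 stood at 9.92 and 10.07 in OCM1 CANT1 cells and 9.00 and 8.95 in wild type cells on replicates 2 and 3, and at 9.72 and 10.72 on replicate 1, of the opposite sign. TMEM97 too had the opposite sign there (0.10), while ACSL1 (1.00) and LPIN2 (0.43) kept theirs. On replicates 2 and 3 LPIN2 and ACSL1 rose and SOAT1 fell in both lines. On replicate 1 SOAT1 was higher in CANT1 cells of both (1.11 in MUM2B and 1.49 in OCM1), and ACSL1 was at −0.18 in MUM2B.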

How the data were processed

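The deposited values are log2 intensities, 1 per probe set and array; the authors obtained them with MAS5, per the submitters' processing notes, which name no normalization or logarithm base, so base 2 was inferred from the range. For each array 2 was raised to the value, signals were scaled to a 2% trimmed mean of 500, and log2(signal + 32) was taken. The table holds 49395 probe sets; besides 102 controls, which were removed, 44988 named 1 gene, 1832 several and 2473 none. A gene was tested where its signal was at least 100 on at least 2 of 8 arrays (12383 genes) or 3 of 12 (12727 genes).

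limma 3.58.1 in R 4.3.3 (lmFit, eBayes) was fitted to replicates 2 and 3 with 1 term per group (4 residual degrees of freedom), to all arrays with a term for the labelled set (7), and to all arrays with a term for each group in each set (4). The script was tested on simulated data. Per-array values are printed for the 8 members with the smallest p in each line, the 4 in the wild type comparison, the 4 regulators and those passing in both lines; of the further genes, the 4 largest that passed in each line are named. The members, lists and fits were chosen with earlier results of these data known. Those results had reported replicate 1 as moving differently, so the fits on replicates 2 and 3 were not chosen blind to it. The alternatives covered other scaling, offsets, filters, probe set rules, limma settings, a replicate block and each array left out. The number of arrays limits the precision.

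Replicate numbers were not taken as pairs: across genes, same-numbered deviations of 2 groups correlated at −0.0053 to 0.61, and the difference of replicates 3 and 2 at 0.195 between the MUM2B groups and −0.128 between the OCM1 groups.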

Additional observations from a re-analysis of the deposited data

Results flagged for a closer look

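The difference between CANT1 and wild type cells differed between OCM1 and MUM2B on replicates 2 and 3 for 20 of the 33 genes, by the limma interaction, OCM1 difference minus MUM2B difference. From the lowest value up, these were INSIG1 at −2.65, HMGCS1 at −2.27, MSMO1 at −2.02, ABCG1 at −1.60, IDI1 at −1.55, ACAT2 at −1.42, DHCR7 at −1.33, SQLE at −1.24, NPC1 at −1.12, EBP at −1.10 and FDPS at −1.02. Smaller ones were SCD at −0.95, SREBF2 at −0.82, MVD at −0.79, LPIN1 at −0.75, HSD17B7 at −0.66, NSDHL at −0.66, FASN at −0.64 and MVK at −0.55. ELOVL6, at 0.41, lay above zero. ABCG1 and HSD17B7 were under a signal of 100 on every OCM1 array of this fit, so their values reflect the MUM2B arrays almost alone.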

How the results depend on the processing

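The numbers of members passing on replicates 2 and 3 were 24 in MUM2B (19 to 24 under the other settings) and 15 in OCM1 (13 to 17). With each array left out they were 9 to 22 and 7 to 16, the interaction 15 to 19, the wild type lines 13 to 18, the dependence on the labelled set 22 to 26 in MUM2B and 6 to 8 in OCM1, and the fit on all arrays 0 to 0 in MUM2B and 0 to 1 in OCM1. Fewer arrays leave less to estimate the spread. With all 12 arrays and the set term, 0 members passed the interaction (4 had an unadjusted p under 0.05) and 9 the comparison of wild type lines. There the interaction of LPIN1 turned to 0.033 and that of NPC1 to 0.23; the cause was not tested. With probe sets of the _x_at and _s_at kinds removed, FADS2 in the wild type lines turned to 0.090 and the set dependence of MYLIP in OCM1 to 0.60, and with the mean of all probe sets that of SCD in OCM1 to 0.62, since other probe sets were read. The replicate block gave 24 and 15 members in MUM2B and OCM1, 21 for the interaction, 20 for the wild type lines, and 0 in each line with all arrays. With the OCM1 CANT1 numbers crossed, an alternative added after seeing the data, the OCM1 block gave 16. With members under a signal of 100 on all arrays of a compared group left out, also added after seeing the data, 23 passed in MUM2B, 15 in OCM1, 18 the interaction and 13 the wild type lines. Over single members and settings, 4418 values kept their side of the threshold, 192 no longer passed and 74 newly passed. Another 5 changed sign and passed in the main or the other setting. Changes of sign in values that passed in neither setting were not counted apart and lie among the 4418.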
